A study of Mus musculus with 9 samples.

Results

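Old and young mouse lens capsule were compared in 6 RNA sequencing libraries out of the 9 of the series, 3 from old control mice and 3 from young control mice. The libraries were assigned to the groups by their titles alone, which name the age group and a replicate number from 1 to 3. No measured value entered that assignment, but the comparison and the gene lists were chosen with earlier results of these data known. Old control mice are called aged below. The 3 libraries of old mice given epigallocatechin gallate, a green tea catechin, are not compared here. They entered the filter on low counts, the scaling and the estimate of the spread between libraries. The tissue is labelled anterior lens capsule in every library, and libraries were made from total RNA with a SMARTer mRNA-Seq kit. The sources used here do not give strain, genotype, sex, the ages or any vehicle given to the controls. Nothing in the labels states whether separate animals, pooled capsules or 1 preparation supplied a group's 3 libraries. The p-values therefore reflect only how far these libraries spread, and that spread may be technical. Library totals were 14030296 to 14483253 counts in the young group and 13943000 to 16528179 counts in the aged group.

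The anterior capsule is the thickened basement membrane of the lens, and a single sheet of epithelial cells lies on its inner face. These cells pump ions for the whole lens, divide slowly in a zone before the equator, and there leave the cell cycle and differentiate into fibre cells. Fibre cells fill themselves with crystallins, the soluble proteins that give the lens its refractive power, and then lose their nuclei. Since the lens keeps its cells for life, its epithelium is a common subject in work on ageing and age-related cataract, which is the disease named in the series title.

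The labelled tissue was checked against marker genes. Lens epithelium markers were present and their summed level was 4131 to 4157 CPM in the young libraries and 6692 to 6945 CPM in the aged libraries, where CPM is the count scaled to a common library size with TMM factors. Of the 15 lens epithelium markers tested, 10 were higher and 3 lower in aged libraries at an adjusted p under 0.05. Scaled by library size alone, 9 were higher and 5 lower. Of all 13711 genes tested, 35.4% were higher and 33.8% lower. Aqp5, a water channel of the lens, had 95.2, 99.7 and 95.3 CPM in the young libraries and 372, 359 and 332 CPM in the aged libraries (log2 fold change 1.87 ± 0.052 (SE), adjusted p = 1.59e-32). Every aged library was above every young one. Slc16a1, a monocarboxylate transporter, fell, with 69.1, 65.95 and 67.6 CPM in the young libraries and 14.03, 14.2 and 11.8 CPM in the aged libraries (log2 fold change -2.33 ± 0.099 (SE), adjusted p = 2.55e-25). Pdgfra, the receptor through which PDGF drives lens epithelial growth, also fell, with a log2 fold change of -1.75 ± 0.12.

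Markers of the retina moved with the age group. All 22 rod markers were lower in aged libraries, with a median log2 fold change of -4.21, and their sum was 28220 to 28420 CPM in young and 1815 to 1899 CPM in aged libraries. Of the 12 cone markers 11 were lower, as were all 14 bipolar cell markers, 17 of 18 amacrine, horizontal and ganglion cell markers and all 23 synapse and neuron genes. Their medians were -3.96, -3.45, -3.64 and -3.22, in that order. Within each group the 3 libraries lay close together, so the retinal signal separates the groups completely. In bulk tissue fewer cells of a type and less RNA per cell cannot be told apart. Retina is not part of the labelled tissue and the labels do not describe the dissection, so the tissue taken and age cannot be told apart for these genes or for others that the retina makes. Rxrg was the exception among the cone markers, since this retinoid receptor gene rose (log2 fold change 1.72 ± 0.072, adjusted p = 1.4e-25).

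Other cell types of the eye and blood varied less evenly. Of 6 red blood cell markers 5 fell, from a sum of 251.8 to 255 CPM to 50.11 to 61.48 CPM, and 12 of 19 endothelium and pericyte markers fell. Of the 17 macrophage and microglia markers 2 rose and 2 fell (1 to 2 each with a library left out), with sums of 42.45 to 45.59 CPM in young and 44.38 to 54.55 CPM in aged libraries. Among the 17 cornea and conjunctiva markers 6 rose and 6 fell (35.3% each, close to the shares of all genes). Muc4, a surface mucin, was among the latter with 7.06, 7.23 and 7.27 CPM in the young libraries and 0, 0.405 and 0 CPM in the aged libraries. Krt19, a simple-epithelium keratin, rose by contrast (log2 fold change 2.05 ± 0.1, adjusted p = 1.7e-22). Müller glia markers were mixed, with 5 higher and 8 lower of 14. The part that tissue composition plays in the results below was not tested.

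**Figure D1:**
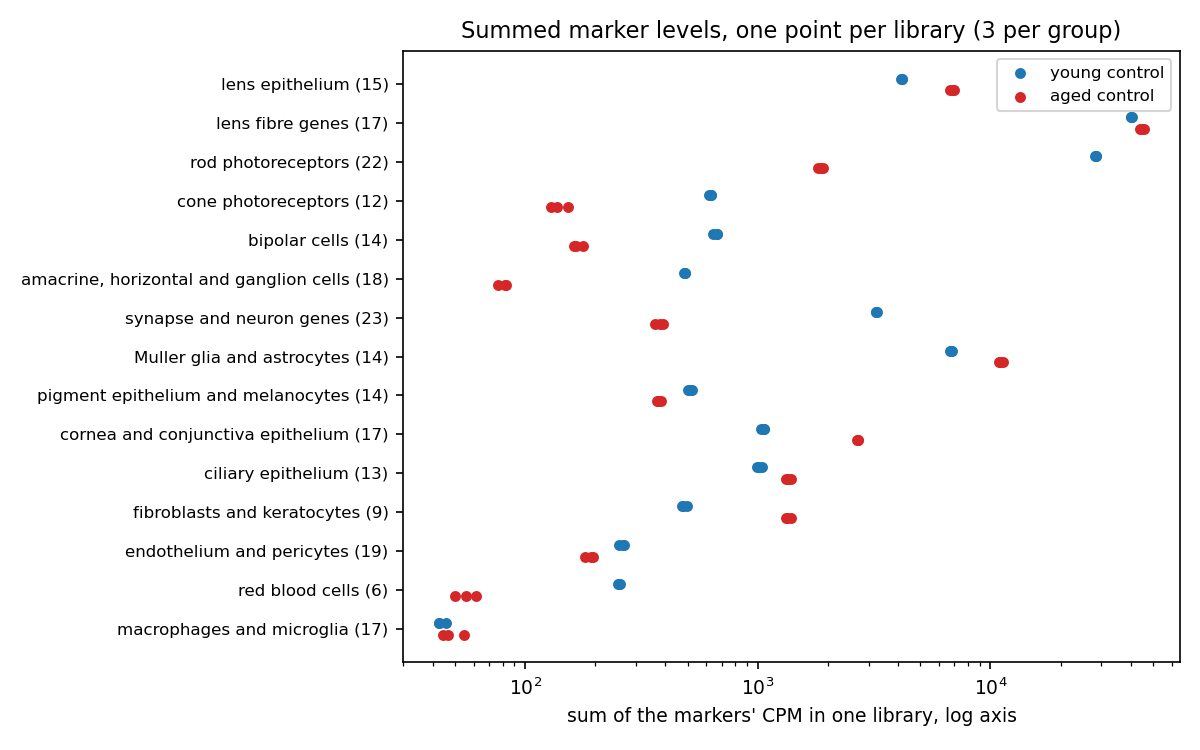
Summed levels of marker genes in each library, in CPM on a log axis, with young control libraries in blue and aged control libraries in red (3 each) and the number of genes summed in brackets. Retinal neuron sums lie far lower in the aged libraries, lens epithelium sums are higher, and macrophage sums lie side by side.

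The 2 groups differed across most of the transcriptome. Of 13711 genes tested, 9482 (69.2%) had an adjusted p under 0.05 in edgeR's quasi-likelihood test, 4847 higher (35.4%) and 4635 lower (33.8%) in aged libraries. The groups did not overlap for 72.1% of genes. The sizes were lopsided: 1017 genes rose at least 2-fold (7.42%) and 2625 fell at least 2-fold (19.1%). At 8-fold the numbers were 22 and 838. These shares are the background for every gene list above and below. A list's size is the number of members left after the filter on low counts, which kept 13711 of 17316 genes with a count.

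The balance between higher and lower depended on the scaling. With library size alone, 2937 genes were higher and 6445 lower, so that 31.3% of called genes were higher instead of 51.1%, and the median of all genes moved by -0.32 on the log2 scale. Scaling to lens fibre genes moved it by -0.30 (32.7% higher) and log2(FPKM + 1) by -0.21 (31.4% higher). Under all 3 of these scalings the majority of called members changed side in the lists for p53 targets in repair and metabolism, DNA replication, iron handling, the unfolded protein response, basement membrane, Wnt antagonists and targets, and complex II and III subunits, and under the first 2 also in the insulin and IGF list. The difference also varied with gene length. The shortest 10% of genes had a median log2 fold change of 0.51, the longest 10% one of -0.57, and the correlation of length with the log2 fold change across genes was -0.33 (Spearman's rank correlation, where genes are not independent replicates). For many lists the values after removing this trend from each library are given beside the others, and the plot of list medians shows more of them.

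**Figure D2:**
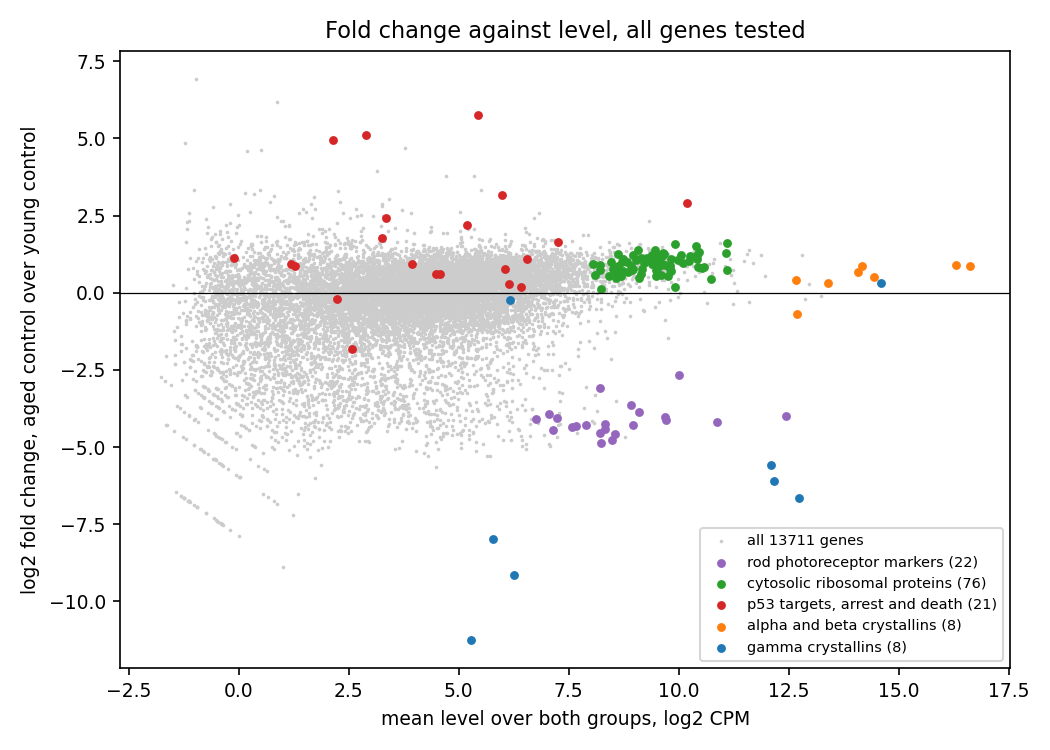
Log2 fold change of aged over young control against the mean level in log2 CPM for all 13711 genes tested (grey), with 5 gene groups in colour. The rod markers form a band near -4.2, 6 gamma crystallins lie below -5, the ribosomal protein genes lie above 0, and Cdkn1a is the highest red point.

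Among genes of at least 20 CPM in the higher group, the largest rises outside the groups described below were in genes of varied function. Kcne4 (chromosome 1, 78816758 to 78820028 in GENCODE M21 on GRCm38), a regulatory subunit of voltage-gated potassium channels, had 1.198, 0.997 and 0.917 CPM in the young libraries and 24.9, 29.1 and 26.1 CPM in the aged libraries (log2 fold change 4.68 ± 0.2 (SE), adjusted p = 4.89e-25). Tinag (chromosome 9, 76951693 to 77045794), a basement membrane glycoprotein first known from the kidney, had 5.55, 4.86 and 6.29 CPM in the young libraries and 81.9, 76.2 and 71.6 CPM in the aged libraries (log2 fold change 3.78 ± 0.1 (SE), adjusted p = 5.39e-33). Neither gene overlapped between groups, and both were low in young tissue. Serpinb6b, an intracellular serine protease inhibitor, rose 5.33-fold (log2 fold change 2.41 ± 0.063). Ckmt2, a mitochondrial creatine kinase, rose 5.95-fold (log2 fold change 2.57 ± 0.15). Among the largest falls outside the crystallins, Gria2, a subunit of AMPA glutamate receptors, had 38.2, 39.02 and 37.6 CPM in the young libraries and 0.757, 0.674 and 1.55 CPM in the aged libraries (log2 fold change -5.29 ± 0.2 (SE), adjusted p = 9.46e-28). Trank1 and Rnf207 fell by a similar amount, with log2 fold changes of -5.18 ± 0.22 and -5.13 ± 0.15.

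The tumour suppressor p53 is a transcription factor that stress signals stabilise. Its targets stop the cell cycle, trigger cell death or aid repair, and MDM2 and MDM4 hold it in check. The promoters of 2 of the targets that rose most are shown because both hold p53 decamers, the short repeat that p53 binds in pairs. Each sequence is the 250 bases before the RefSeq start site (GRCm38.p6), written 5′ to 3′ on the strand of the gene, with matches to the decamer in capitals. Cdkn1a is on the plus strand (chr17:29090729-29090978) with matches at -73 to -64 and -51 to -42, counted from the start site, and Ccng1 is on the minus strand (chr11:40755287-40755536) with a match at -185 to -176.
Cdkn1a: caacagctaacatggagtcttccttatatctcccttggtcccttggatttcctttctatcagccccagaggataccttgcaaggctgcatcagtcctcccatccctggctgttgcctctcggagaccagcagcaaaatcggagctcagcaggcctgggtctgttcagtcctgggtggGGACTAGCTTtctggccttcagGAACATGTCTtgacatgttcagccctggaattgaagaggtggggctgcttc
Ccng1: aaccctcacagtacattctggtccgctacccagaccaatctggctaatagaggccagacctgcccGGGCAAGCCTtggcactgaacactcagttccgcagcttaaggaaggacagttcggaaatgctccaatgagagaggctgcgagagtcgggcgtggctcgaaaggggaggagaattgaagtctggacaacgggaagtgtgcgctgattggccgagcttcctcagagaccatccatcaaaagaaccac
In a window from 250 bases before to 50 after the start site, on both strands, 5 of the 17 arrest and death targets with a sequence held a decamer (29.4%), against 6.94% of the 10886 tested genes with a sequence. Among genes called at least 2-fold higher the share was 7.43%, and among those at least 2-fold lower 7.29%. The list was drawn up from known p53 targets, so its share describes the list and not these libraries.

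Of 10 p53 targets in cell cycle arrest 7 rose and 1 fell (median log2 fold change 0.90; 4 rose and 3 fell with library size alone), against 35.4% and 33.8% of all genes. Cdkn1a (chromosome 17, 29090976 to 29100727) encodes p21, the inhibitor through which p53 blocks cyclin-dependent kinases. It had 1.703, 1.75 and 1.28 CPM in the young libraries and 77.8, 90.9 and 87.4 CPM in the aged libraries (log2 fold change 5.75 ± 0.12 (SE), adjusted p = 1.36e-37). Ccng1 (chromosome 11, 40748552 to 40755311), which encodes cyclin G1, had 279, 276 and 278 CPM in the young libraries and 2040.2, 2073 and 2111 CPM in the aged libraries (log2 fold change 2.90 ± 0.043 (SE), adjusted p = 6.6e-44). The 2 genes thus rose from very different starting levels. Gtse1, whose product binds p53 and is usually made in the S and G2 phases, was nearly silent in young tissue, with 0.568, 0.125 and 0.122 CPM in the young libraries and 8.804, 8.22 and 8.91 CPM in the aged libraries (log2 fold change 4.96 ± 0.36 (SE), adjusted p = 1.5e-16). Plk2, a polo-like kinase, was the member that fell (log2 fold change -1.81 ± 0.24, adjusted p = 3.8e-09).

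All 11 p53 targets in cell death were higher, with a median log2 fold change of 1.66, and it was 1.35 with the length trend removed. Eda2r, a receptor of the tumour necrosis factor family, had 0.252, 0.312 and 0.672 CPM in the young libraries and 15.1, 13.9 and 14.6 CPM in the aged libraries (log2 fold change 5.10 ± 0.27 (SE), adjusted p = 1.03e-21). Phlda3, a pleckstrin-homology protein that competes with AKT for membrane lipids, had 11.98, 13.5 and 12.2 CPM in the young libraries and 124, 103 and 113 CPM in the aged libraries (log2 fold change 3.18 ± 0.082 (SE), adjusted p = 5.02e-34). Bbc3, which encodes the death protein PUMA, had 2.59, 3.55 and 3.54 CPM in the young libraries and 18.02, 15.6 and 18.4 CPM in the aged libraries (log2 fold change 2.42 ± 0.18 (SE), adjusted p = 2.98e-16). In all 3 genes the lowest aged library stood above the highest young one several times over. Aen, an apoptosis-enhancing nuclease, rose 4.62-fold, the TRAIL receptor gene Tnfrsf10b 3.41-fold, the membrane protein gene Perp 3.15-fold and the BCL2 family member Bax 2.15-fold. The list for repair and metabolism did not share this pattern, with 4 higher and 2 lower of 9 (1 lower without aged replicate 2 or young replicate 2). There Ephx1, microsomal epoxide hydrolase, rose (log2 fold change 2.58 ± 0.062, adjusted p = 2.8e-35), while Tigar, a phosphatase that lowers glycolytic flux, fell (log2 fold change -1.44 ± 0.14, adjusted p = 3.4e-12).

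Of 10 genes for p53 itself and its regulators 3 rose and 4 fell. Trp53 had 10.1, 13.7 and 9.23 CPM in the young libraries and 16.6, 15.6 and 16.8 CPM in the aged libraries (log2 fold change 0.57 ± 0.15 (SE), adjusted p = 0.000734). With library size alone its log2 fold change was 0.25 (adjusted p = 0.136). Mdm2, both target and inhibitor of p53, had 53.9, 55.9 and 55.1 CPM in the young libraries and 82.2, 81.4 and 74.05 CPM in the aged libraries (log2 fold change 0.53 ± 0.069 (SE), adjusted p = 4.07e-09). Mdm4, the second inhibitor, went the other way, with 68.5, 69.3 and 71.9 CPM in the young libraries and 28.5, 36.1 and 36.1 CPM in the aged libraries (log2 fold change -1.06 ± 0.087 (SE), adjusted p = 6.81e-15). Cop1, another ubiquitin ligase for p53, rose (log2 fold change 0.89 ± 0.075, adjusted p = 1.5e-14), and the damage kinase gene Atm fell (log2 fold change -0.85 ± 0.15, adjusted p = 2e-06). The median of the 10 genes was -0.20.

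**Figure D3:**
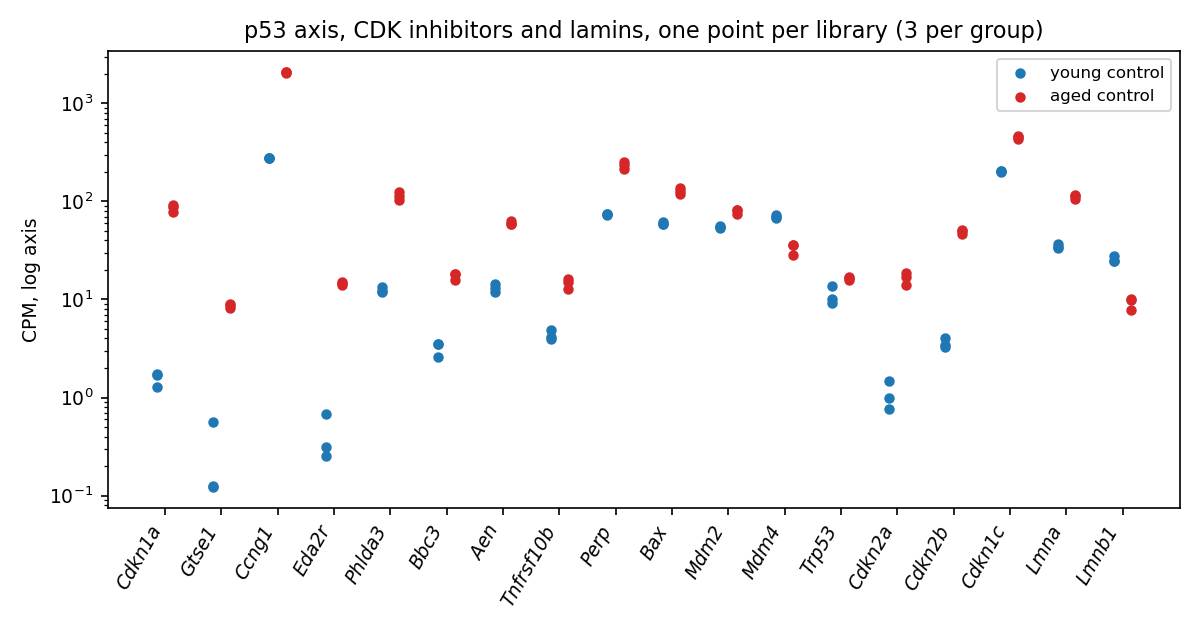
Levels of p53 targets, p53 and its regulators, cyclin-dependent kinase inhibitors and lamins in each library, in CPM on a log axis, with young control in blue and aged control in red (3 points each). The groups do not overlap for any of the 18 genes, and Mdm4 and Lmnb1 are the ones lower in aged libraries.

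All 7 cyclin-dependent kinase inhibitors that passed the filter, of 8 listed, were higher, with a median log2 fold change of 1.15. With library size alone, and also with the length trend removed, 4 of the 7 were called higher and none lower. The medians were then 0.83 and 0.86. The 2 inhibitors of the locus on chromosome 4 rose most after Cdkn1a. Cdkn2a (chromosome 4, 89274471 to 89294653) encodes p16 and, in another reading frame, ARF, and these gene counts do not separate the products. It had 0.757, 0.997 and 1.47 CPM in the young libraries and 18.4, 17.1 and 14.2 CPM in the aged libraries (log2 fold change 3.94 ± 0.22 (SE), adjusted p = 5.82e-21). Cdkn2b (chromosome 4, 89306299 to 89311039), which encodes p15, had 4.04, 3.24 and 3.42 CPM in the young libraries and 49.8, 50.8 and 46.9 CPM in the aged libraries (log2 fold change 3.78 ± 0.12 (SE), adjusted p = 4.01e-30). Cdkn1c, the p57 gene that marks fibre cells leaving the cycle, was the inhibitor with a high level in both groups, with 202, 204 and 204 CPM in the young libraries and 451, 463 and 438 CPM in the aged libraries.

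Genes of the dividing cell were low in both groups, and few were called. The 23 mitotic genes summed to 60.26 to 64.21 CPM in young and 39.12 to 44.16 CPM in aged libraries. At such levels a missing call does not show that a gene was alike in both groups. Of 23 mitotic genes 1 was higher and 3 were lower (0 and 6 with library size alone). Both shares are smaller than those of all genes. None was higher without aged replicate 2 or without young replicate 3, and 5 were lower in a fit of the 6 libraries alone. Mki67, the common proliferation marker, had 4.98, 4.68 and 4.46 CPM in the young libraries and 4.402, 4.58 and 4.72 CPM in the aged libraries (log2 fold change -0.04 ± 0.27 (SE), adjusted p = 0.895). Its groups overlapped. Ccna2, cyclin A2 of S phase and mitosis, was the clearest fall, with 10.3, 13.96 and 12.7 CPM in the young libraries and 2.61, 2.63 and 3.098 CPM in the aged libraries (log2 fold change -2.15 ± 0.23 (SE), adjusted p = 2.72e-11). Of 20 replication genes 5 were higher (3 with DESeq2 size factors) and 2 lower. Upstream of replication, the D-type cyclin gene Ccnd1 rose 2.499-fold (log2 fold change 1.32 ± 0.051, adjusted p = 3.9e-27) and its kinase gene Cdk4 1.97-fold (log2 fold change 0.98 ± 0.081, adjusted p = 7.6e-15).

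Of 11 genes of the nuclear lamina, the mesh that lines the nucleus, 4 rose and 5 fell. Lmna, the gene of lamins A and C, had 37.2, 33.7 and 34.2 CPM in the young libraries and 116, 113 and 105 CPM in the aged libraries (log2 fold change 1.67 ± 0.069 (SE), adjusted p = 6.67e-26). Lmnb1, the gene of lamin B1, had 27.8, 24.7 and 24.9 CPM in the young libraries and 9.905, 7.75 and 10.1 CPM in the aged libraries (log2 fold change -1.48 ± 0.15 (SE), adjusted p = 2.09e-12). A-type and B-type lamin transcripts therefore moved in opposite directions, and no library crossed between the groups. Emd, the inner-membrane protein emerin, rose (log2 fold change 1.23 ± 0.11, adjusted p = 1.6e-13), and Lemd3, another inner-membrane protein, fell (log2 fold change -0.92 ± 0.14, adjusted p = 9.1e-08). Of 38 DNA repair genes 9 were higher and 13 lower. Scaling by library size alone left 3 higher and 17 lower, and without the length trend the majority turned, with 9 higher and 6 lower. Xpa, which verifies damage in nucleotide excision repair, stood apart with 24.8, 25.5 and 22.98 CPM in the young libraries and 86.5, 83.5 and 73.1 CPM in the aged libraries (log2 fold change 1.73 ± 0.084 (SE), adjusted p = 3.23e-23). Ercc2, the XPD helicase of the same pathway, fell (log2 fold change -1.45 ± 0.1, adjusted p = 3.7e-17).

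Of the 8 gamma crystallins 7 fell, 6 of them far more than 2-fold, while Crygn fell little (log2 fold change -0.23 ± 0.071, adjusted p = 0.0045) and Crygs did not fall. The promoters of Crygb, Crygc and Crygd are shown with that of Crygs, the gamma crystallin that stayed high, as examples of this family. Each is the 250 bases before the RefSeq start site (GRCm38.p6) on the minus strand, 5′ to 3′, at chr1:65082291-65082540 for Crygb, chr1:65073533-65073782 for Crygc, chr1:65063441-65063690 for Crygd and chr16:22811411-22811660 for Crygs. Capitals mark the letters TTTGTG, the repeat TATATA and, in Crygs, the box TATAAA, each searched on both strands. The repeat and the box can overlap each other.
Crygb: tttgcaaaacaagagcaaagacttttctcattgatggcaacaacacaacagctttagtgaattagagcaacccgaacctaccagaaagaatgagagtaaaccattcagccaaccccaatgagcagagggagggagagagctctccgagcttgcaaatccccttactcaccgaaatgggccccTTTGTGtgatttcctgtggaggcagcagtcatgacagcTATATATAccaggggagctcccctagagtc
Crygc: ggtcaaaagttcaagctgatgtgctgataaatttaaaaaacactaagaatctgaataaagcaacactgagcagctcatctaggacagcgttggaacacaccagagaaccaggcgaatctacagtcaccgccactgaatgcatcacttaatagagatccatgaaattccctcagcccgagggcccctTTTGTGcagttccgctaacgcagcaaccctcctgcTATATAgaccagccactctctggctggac
Crygd: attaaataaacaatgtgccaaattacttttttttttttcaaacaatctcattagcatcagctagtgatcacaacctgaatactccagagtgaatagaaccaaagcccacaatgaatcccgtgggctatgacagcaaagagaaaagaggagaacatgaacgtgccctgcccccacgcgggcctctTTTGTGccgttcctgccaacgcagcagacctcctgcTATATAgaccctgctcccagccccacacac
Crygs: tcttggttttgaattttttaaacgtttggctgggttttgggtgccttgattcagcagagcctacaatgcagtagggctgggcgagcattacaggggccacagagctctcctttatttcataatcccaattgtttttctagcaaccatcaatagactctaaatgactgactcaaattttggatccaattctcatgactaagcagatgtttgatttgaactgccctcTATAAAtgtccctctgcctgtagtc
TTTGTG and TATATA were chosen after the sequences were seen, and their relation to the direction of change was not tested. All 6 gamma crystallins that fell at least 2-fold held both within the window from 250 bases before to 50 after the start, Crygn held TATATA only, and Crygs held TATAAA but neither of the others. Over all 10886 tested genes with a sequence, 12.5% held TTTGTG, 2.28% TATATA and 7.06% TATAAA.

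Crygb, Crygc and Crygd lie within the cluster on chromosome 1 and encode the compact crystallins of the early-formed fibre core. Crygb had 13316, 13632 and 13409.7 CPM in the young libraries and 132, 139 and 133 CPM in the aged libraries (log2 fold change -6.64 ± 0.055 (SE), adjusted p = 5.47e-54). Crygc and Crygd fell 47.9-fold and 68.98-fold. The other 3 were lower in young tissue and at or near the floor in aged tissue. Cryga had 3769 counts over the young libraries and 1 over the aged ones, a ratio of 3301 with a 95% counting interval from 592.1 to 130400. Cryge had 5287 and 18 counts, a ratio of 257.3 (162.6 to 434.4), and Crygf 7409 and 11 counts, a ratio of 589.9 (329.5 to 1182). These 6 genes share sequence, so reads may be split among them by the counting. Crygs had 22068, 22874 and 22071 CPM in the young libraries and 29220.4, 27078 and 26762 CPM in the aged libraries (log2 fold change 0.31 ± 0.034 (SE), adjusted p = 3.28e-11). That small rise was -0.01 with library size alone (adjusted p = 0.707) and -0.18 with the length trend removed (adjusted p = 4.68e-10). Of the 8 alpha and beta crystallins 7 rose and Crybb3 fell (log2 fold change -0.69 ± 0.043, adjusted p = 3.2e-19), with a median of 0.59. With the length trend removed 4 were higher and 3 lower, and the median was 0.09.

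Genes of fibre differentiation were divided, with 10 higher and 6 lower of 17, or 7 and 7 with library size alone. Dnase2b, the nuclease that degrades fibre cell nuclei, had 91.7, 87.7 and 86.7 CPM in the young libraries and 26.7, 26.2 and 27.7 CPM in the aged libraries (log2 fold change -1.72 ± 0.081 (SE), adjusted p = 9.05e-24). Clic5, a chloride channel family protein, fell by nearly the same factor (log2 fold change -1.70 ± 0.085, adjusted p = 1.4e-22). Gja3, the fibre connexin 46, moved the other way with 529, 502 and 514 CPM in the young libraries and 1169, 1128 and 1152 CPM in the aged libraries (log2 fold change 1.16 ± 0.042 (SE), adjusted p = 4.27e-28). Among 19 lens transcription factors 11 rose and 2 fell, and with library size alone the numbers were 8 and 6. Pitx3, a homeobox factor of the lens, rose most (log2 fold change 1.42 ± 0.074, adjusted p = 8.5e-22), followed by Sox1 (log2 fold change 1.10 ± 0.068, adjusted p = 3.2e-19). Pax6, the master regulator of eye development, had 149.8, 154 and 151 CPM in the young libraries and 166, 154 and 153 CPM in the aged libraries (log2 fold change 0.06 ± 0.055 (SE), adjusted p = 0.356), and its groups overlapped. Meis1, a homeobox factor upstream of Pax6, fell (log2 fold change -0.65 ± 0.12, adjusted p = 5e-06).

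The machinery of protein synthesis rose broadly. Of 76 cytosolic ribosomal protein genes 75 rose and 0 fell (median log2 fold change 0.94). These are short genes, and removing the length trend brought their median to 0.47. Rpl4 had the largest change, with 1071, 1059 and 1077 CPM in the young libraries and 3477, 3272 and 3139.9 CPM in the aged libraries (log2 fold change 1.62 ± 0.041 (SE), adjusted p = 2.14e-34). These genes, Eef1a1 below, and the ferritin genes have many near-identical processed copies in the genome, so their reads may have been split by the counting. A list of translation factor genes followed with 46 of 57 higher and 6 lower, or 37 and 10 with library size alone. It was matched by symbol and also holds the eIF2 kinase genes. Of these, Eif2ak1 and Eif2ak2 are among the rises and Eif2ak3 among the falls, while Eif2ak4 was not called. The 2 isoforms of elongation factor 1A parted. Eef1a1, the general form, had 4323, 4343 and 4310.2 CPM in the young libraries and 10168, 10210.2 and 9811 CPM in the aged libraries (log2 fold change 1.22 ± 0.034 (SE), adjusted p = 1.91e-32). Eef1a2, the form of neurons and muscle, had 124, 122.7 and 125 CPM in the young libraries and 10.5, 10.9 and 10.3 CPM in the aged libraries (log2 fold change -3.55 ± 0.081 (SE), adjusted p = 4.32e-36). The fall in Eef1a2 stands beside that of the 23 neuron genes above (median -3.22), and their part in it was not tested. Of 78 mitochondrial ribosomal protein genes 62 rose and 1 fell, or 3 without aged replicate 1 and 2 without young replicate 2 (median 0.57, or 0.25 without the length trend).

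Protein folding and removal showed a similar direction. Of 37 proteasome subunits 32 rose and 0 fell, with a median of 0.61 that dropped to 0.19 once the length trend was removed. The subunit gene Psmc5 had 258, 246 and 250.1 CPM in the young libraries and 546, 568 and 535 CPM in the aged libraries (log2 fold change 1.13 ± 0.047 (SE), adjusted p = 1.32e-25). All 8 subunits of TRiC, the chaperonin that folds actin and tubulin, rose, led by Cct2 (log2 fold change 1.13 ± 0.05, adjusted p = 1.6e-24), with 5 called higher by library size alone and a median of 0.67, or 0.39 without the length trend. Heat shock genes were divided, 13 higher and 7 lower of 21 (8 and 7 with library size alone). Hspa8, the constitutive HSP70, had 1900.5, 1926 and 1871 CPM in the young libraries and 3852, 3927 and 3865 CPM in the aged libraries (log2 fold change 1.03 ± 0.037 (SE), adjusted p = 2.86e-28). Hspb1, a small heat shock protein of the lens, had 1280.4, 1277 and 1271 CPM in the young libraries and 474, 471 and 433 CPM in the aged libraries (log2 fold change -1.47 ± 0.049 (SE), adjusted p = 2.06e-29). Promoters of 8 of the 15 heat shock genes with a sequence held GAANNTTC, a core of the heat shock element (53.3%, against 5.48% of all). Genes called at least 2-fold higher held it in 5.42% of cases, and those at least 2-fold lower in 5.99%.

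Autophagy and lysosomal genes rose more often than they fell under TMM scaling. The counts were 17 higher and 5 lower of 26 for autophagy and 17 and 1 of 25 for cathepsins and lysosomal genes, where 0 to 2 were lower when single libraries were left out. The counts by library size alone were 11 and 8 for autophagy and 8 and 6 (median -0.03) for the second list. Sqstm1, the cargo receptor p62, had 191, 202 and 191 CPM in the young libraries and 597, 596 and 566 CPM in the aged libraries (log2 fold change 1.59 ± 0.047 (SE), adjusted p = 1.28e-31). Bnip3l, a receptor for removal of mitochondria in maturing fibres, rose (log2 fold change 1.10 ± 0.047, adjusted p = 2.8e-25), as did the autophagosome gene Wipi1 (log2 fold change 1.16 ± 0.071, adjusted p = 1.6e-19). Optn, another cargo receptor, fell (log2 fold change -0.85 ± 0.074, adjusted p = 3.8e-14). Ctsz, a lysosomal cysteine protease, had 74.6, 86.2 and 80.7 CPM in the young libraries and 164, 172 and 180.3 CPM in the aged libraries (log2 fold change 1.10 ± 0.059 (SE), adjusted p = 1.8e-21). In the unfolded protein response Ddit3, the stress factor CHOP, rose (log2 fold change 1.04 ± 0.097, adjusted p = 3.2e-13), while the sensor gene Ern1 fell (log2 fold change -0.73 ± 0.13, adjusted p = 2.8e-06).

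Most enzymes that detoxify peroxides and electrophiles rose. Of 14 genes of glutathione synthesis and peroxidases 10 rose, of 19 glutathione S-transferases 14, and of 15 superoxide, peroxide and thioredoxin enzymes 12. None of these lists had a member called lower, and their medians were 0.73, 0.82 and 0.65. With the length trend removed the medians were 0.57, 0.45 and 0.34, and 3 genes of the first list and 1 of the second were then called lower. With library size alone 8, 11 and 11 genes of the 3 lists were called higher, and 1, 0 and 3 lower. Gss, glutathione synthetase, had 287, 276 and 279 CPM in the young libraries and 851, 812 and 777 CPM in the aged libraries (log2 fold change 1.54 ± 0.045 (SE), adjusted p = 1.3e-31). Gpx3, the secreted glutathione peroxidase, had 163, 167 and 166 CPM in the young libraries and 547, 500.1 and 504 CPM in the aged libraries (log2 fold change 1.64 ± 0.05 (SE), adjusted p = 3.98e-31). Gstp2, a pi-class transferase with a close copy in Gstp1, had 3.66, 5.42 and 4.22 CPM in the young libraries and 18.6, 19.9 and 18.9 CPM in the aged libraries (log2 fold change 2.11 ± 0.16 (SE), adjusted p = 4.45e-16), and reads may be shared between the copies.

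The rest of the protective lists were more mixed. Of 14 genes for NRF2 and enzymes it induces 10 rose and 2 fell, and 1 of the 2 falls was lost when any library but aged replicate 1 was left out. Library size alone gave 6 rises and 5 falls. Aldh3a1, the abundant corneal aldehyde dehydrogenase, had 209, 217 and 212 CPM in the young libraries and 1055, 1097 and 1051 CPM in the aged libraries (log2 fold change 2.33 ± 0.045 (SE), adjusted p = 3.51e-39), the largest change of its 17 family members, of which 10 rose. Aldh5a1, which clears succinic semialdehyde in GABA breakdown, fell (log2 fold change -1.76 ± 0.19, adjusted p = 4.2e-11). Ferritin, the iron store of the cell, rose in both subunits. Ftl1, the light subunit, had 1741, 1765 and 1759.5 CPM in the young libraries and 4229, 4325 and 4096 CPM in the aged libraries, and Fth1, the heavy subunit, had 716, 708 and 704 CPM in the young libraries and 1501, 1454 and 1291 CPM in the aged libraries. The groups did not overlap for either gene. Trf, the iron carrier transferrin, fell (log2 fold change -1.44 ± 0.074, adjusted p = 4.2e-22).

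**Figure D4:**
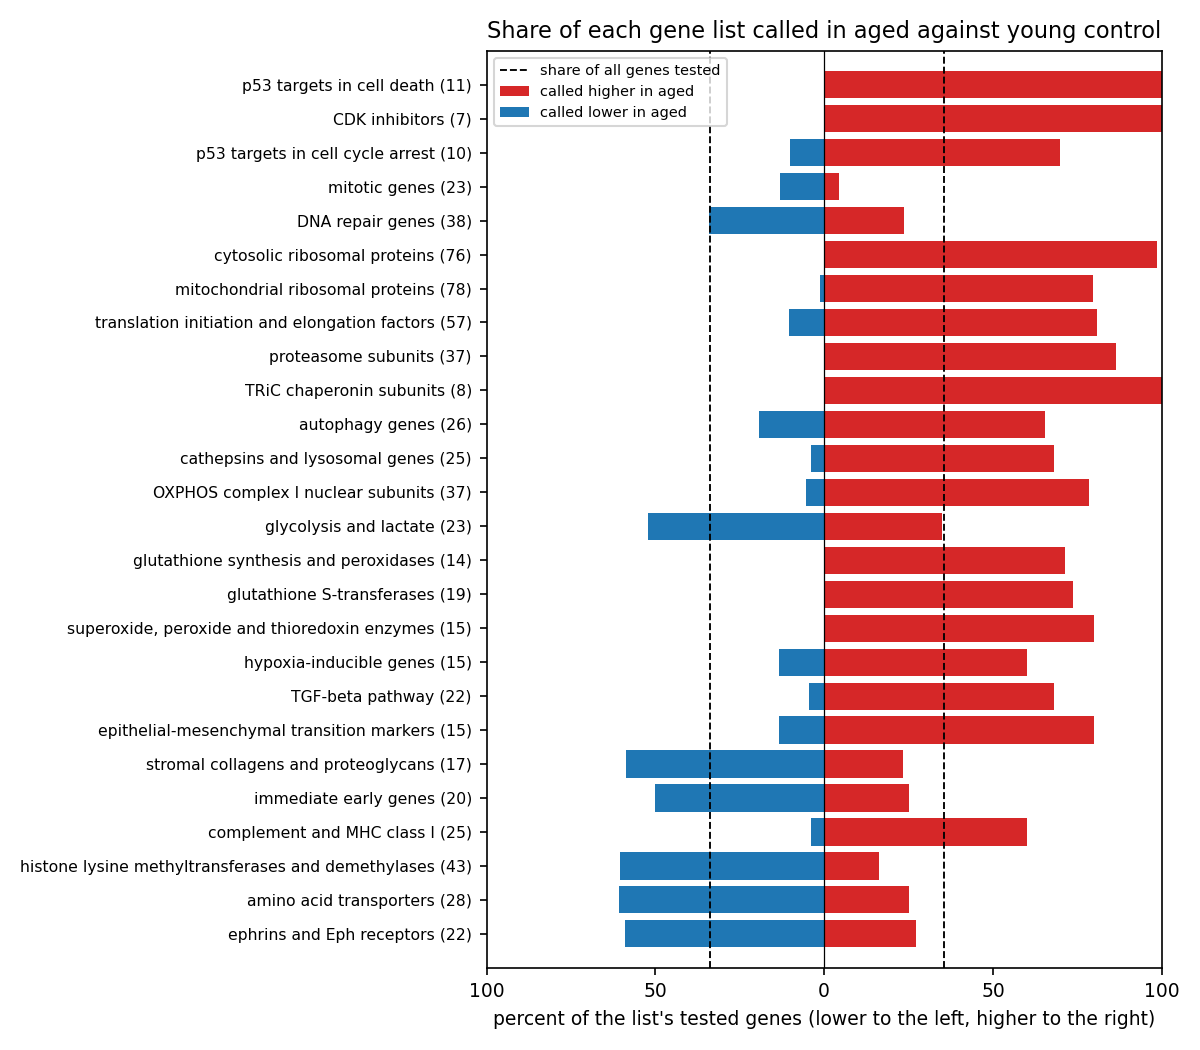
Percentage of tested members of each gene list called higher (red, right) or lower (blue, left) in aged against young control at an adjusted p under 0.05, with the list's size in brackets. Dashed lines mark the shares of all genes tested, 35.4% higher and 33.8% lower, so bars that end near a line are like all genes.

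Respiratory chain genes were higher in count, which depended on scaling and gene length. The complex I list, matched by symbol, had 29 higher and 2 lower of 37 nuclear genes, or 13 and 8 with library size alone. Its median of 0.42 was -0.07 with the length trend removed. The list still holds Ndufa4, 1 of the 2 that fell. Complexes IV and V had 22 higher and 0 lower of 30, or 14 and 7 with library size alone, with a median of 0.45. With the length trend removed the majority turned, with 8 higher and 11 lower and a median of -0.06. Ndufa4 and its paralogue Ndufa4l2 moved apart. Ndufa4, a subunit now assigned to cytochrome oxidase, had 159, 151 and 155 CPM in the young libraries and 81.9, 89.7 and 72.9 CPM in the aged libraries (log2 fold change -0.93 ± 0.068 (SE), adjusted p = 1.64e-16). Ndufa4l2 (chromosome 10, 127514967 to 127517154), a hypoxia-induced protein, had 6.18, 7.92 and 10.5 CPM in the young libraries and 92.5, 79.1 and 76.4 CPM in the aged libraries (log2 fold change 3.33 ± 0.11 (SE), adjusted p = 3.6e-29).

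Ndufa4l2 was joined by other genes known to be induced by low oxygen. Of a list of 15 genes of the low-oxygen response 9 rose and 2 fell, or 7 and 5 with library size alone. The 2 that fell encode HIF1 alpha and HIF2 alpha, factors that drive this response, and not genes listed as induced by it. Car9, a carbonic anhydrase at the cell surface, had 3.595, 3.05 and 4.03 CPM in the young libraries and 25.4, 22.5 and 20.2 CPM in the aged libraries (log2 fold change 2.67 ± 0.16 (SE), adjusted p = 3.17e-19). Egln3, a prolyl hydroxylase that marks HIF for destruction, had 9.27, 8.42 and 9.78 CPM in the young libraries and 62.3, 52.2 and 55.8 CPM in the aged libraries (log2 fold change 2.63 ± 0.11 (SE), adjusted p = 6.49e-26). Slc2a1, the glucose transporter GLUT1, had 353, 348 and 365 CPM in the young libraries and 847, 846 and 818 CPM in the aged libraries (log2 fold change 1.24 ± 0.044 (SE), adjusted p = 3.34e-28). The groups were separate for all 3 genes. Epas1, which encodes HIF2 alpha, fell (log2 fold change -2.25 ± 0.13, adjusted p = 8.7e-21). Of 19 endothelium and pericyte markers 12 fell too, and the part of these cells in the fall of Epas1 was not tested. Vegfa, a classical HIF target, had 73.6, 72.2 and 75.97 CPM in the young libraries and 75.8, 69.8 and 75.4 CPM in the aged libraries (log2 fold change -0.01 ± 0.069 (SE), adjusted p = 0.948).

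Glycolytic genes fell more often than they rose, with 8 higher and 12 lower of 23. Pfkfb3, which makes the activator of phosphofructokinase, had 45.5, 45.9 and 43.1 CPM in the young libraries and 126, 135 and 129 CPM in the aged libraries (log2 fold change 1.54 ± 0.067 (SE), adjusted p = 5.43e-25). Hk1, the hexokinase of brain and retina, had 336, 338 and 335 CPM in the young libraries and 77.04, 83.5 and 81.5 CPM in the aged libraries (log2 fold change -2.06 ± 0.054 (SE), adjusted p = 9.8e-34). Hk2 fell as well (log2 fold change -1.38 ± 0.06, adjusted p = 5.4e-25). Eno2, the enolase of neurons, fell 8.57-fold (log2 fold change -3.10 ± 0.077), and the fall of retinal markers stands beside these genes, with its part not tested. Capn2, a calpain of the lens that calcium activates, had 100.8, 97.8 and 94.8 CPM in the young libraries and 228, 231 and 230.04 CPM in the aged libraries (log2 fold change 1.23 ± 0.054 (SE), adjusted p = 5.42e-25), and its inhibitor gene Cast rose with it (log2 fold change 1.34 ± 0.08, adjusted p = 1e-19). Cholesterol synthesis had 4 higher and 8 lower of 21. Slc5a3, the myo-inositol transporter induced by osmotic stress, rose 2.54-fold (log2 fold change 1.35 ± 0.081, adjusted p = 1e-19).

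The count for components of the capsule itself turned on the processing. Of 25 basement membrane genes 10 rose and 5 fell (median 0.07), and the 3 scalings named above reversed that majority, with 4 higher and 14 lower for library size alone. Removing the length trend went the other way, to 18 higher and 3 lower and a median of 0.47. Without aged replicate 2 only 3 fell, and in a fit of the 6 libraries alone 8 fell. Col4a1, the main type IV collagen chain, had 2474, 2507 and 2510.3 CPM in the young libraries and 2547, 2607 and 2671 CPM in the aged libraries (log2 fold change 0.06 ± 0.039 (SE), adjusted p = 0.153). Agrn, the proteoglycan agrin, fell (log2 fold change -1.18 ± 0.093, adjusted p = 2.1e-15). Stromal collagens and proteoglycans fell in 10 of 17 cases and rose in 4. Dcn, the proteoglycan decorin of connective tissue, had 8.83, 9.48 and 11.6 CPM in the young libraries and 2.82, 2.899 and 2.32 CPM in the aged libraries (log2 fold change -1.89 ± 0.27 (SE), adjusted p = 3.63e-08). Fmod, fibromodulin, rose (log2 fold change 1.12 ± 0.068, adjusted p = 1.8e-19). Of 16 integrins, the receptors that hold cells to matrix, 7 rose and 4 fell, and without young replicate 3 only 2 fell. Itga6 rose 1.74-fold and Itgb5 1.69-fold, while Itga4 had 131 counts over the young and 7 over the aged libraries, a ratio of 16.39 (7.735 to 41.57), and Itgb8 fell (log2 fold change -0.57 ± 0.13, adjusted p = 9.4e-05; -0.26 and adjusted p = 0.0609 without the length trend). Metalloproteinases and their inhibitors were divided, with 4 higher and 5 lower of 13. Timp3, a matrix-bound inhibitor, rose 1.88-fold, and Mmp9, a gelatinase, fell (log2 fold change -2.65 ± 0.43, adjusted p = 6.7e-07).

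TGF-beta signalling genes rose in 15 of 22 cases and fell in 1 (2 without aged replicate 3 or young replicate 3), with a median of 0.51, or 0.61 without the length trend. Scaled by library size alone, 10 rose and 6 fell. In the lens this pathway is known for turning epithelial cells into contractile, matrix-making cells in some cataracts. Among ligands, Tgfb1 had 14.6, 14.5 and 16.01 CPM in the young libraries and 41.96, 36.5 and 32.8 CPM in the aged libraries (log2 fold change 1.30 ± 0.11 (SE), adjusted p = 7.44e-15), and Tgfb3 rose 1.93-fold. Among targets, Ccn2, a matricellular target shared with the Hippo pathway, rose 1.77-fold. Ltbp4, a binding protein that holds TGF-beta latent, was the member that fell (log2 fold change -1.29 ± 0.29, adjusted p = 0.00011).

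Of 15 genes used as markers of epithelial-mesenchymal transition 12 rose and 2 fell. Vim, the intermediate filament vimentin that lens epithelium also makes, had 1719, 1754 and 1723 CPM in the young libraries and 4519, 4543 and 4418 CPM in the aged libraries (log2 fold change 1.38 ± 0.037 (SE), adjusted p = 3.55e-33). Acta2, smooth muscle actin, had 300.2, 286 and 292 CPM in the young libraries and 761, 717 and 741 CPM in the aged libraries (log2 fold change 1.34 ± 0.046 (SE), adjusted p = 4.06e-29). Twist1, a transcription factor that drives this transition, was low in both groups, with 0.252, 0.623 and 0.183 CPM in the young libraries and 2.68, 3.17 and 3.56 CPM in the aged libraries (log2 fold change 3.12 ± 0.5 (SE), adjusted p = 4.14e-07). Tagln, a smooth muscle protein, fell (log2 fold change -1.98 ± 0.3, adjusted p = 1.2e-07), and so did Fn1, fibronectin (log2 fold change -1.53 ± 0.18, adjusted p = 4.4e-10). Cdh1, the epithelial cadherin that is usually lost in the transition, rose too (log2 fold change 0.87 ± 0.065, adjusted p = 1.8e-16). The list therefore holds both an epithelial and several mesenchymal genes that rose.

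The genes of 3 receptors of fibroblast growth factors, which drive fibre differentiation, rose. Fgfr1 had 75.6, 77.4 and 78.9 CPM in the young libraries and 163, 157 and 156 CPM in the aged libraries (log2 fold change 1.04 ± 0.059 (SE), adjusted p = 1.85e-20). Fgfr2 rose 1.59-fold and Fgfr3 1.83-fold. Of the 15 receptor and feedback genes 7 rose and 2 fell. Etv5, a transcription factor induced by this pathway, rose 2.15-fold, and its relative Etv4 fell (log2 fold change -1.22 ± 0.41, adjusted p = 0.0072). Fgf9, a ligand also made in the retina, had 10.4, 8.603 and 9.47 CPM in the young libraries and 0.894, 1.01 and 0.6196 CPM in the aged libraries (log2 fold change -3.47 ± 0.31 (SE), adjusted p = 1.14e-13). In the Notch pathway, which keeps lens progenitors undifferentiated, 6 genes rose and 6 fell of 18, and without young replicate 3 only 3 fell. Its target Hey1 rose 2.16-fold (log2 fold change 1.11 ± 0.12, adjusted p = 1.4e-11). Yap1, the Hippo coactivator of epithelial growth, rose 2.08-fold (log2 fold change 1.06 ± 0.064, adjusted p = 1.3e-19).

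Of 16 insulin and IGF pathway genes 7 rose and 4 fell, but 5 rose and 7 fell with library size alone. The ligand genes Igf2 and Igf1 fell (log2 fold change -1.20 ± 0.16, adjusted p = 8.4e-09 for Igf2 and log2 fold change -0.79 ± 0.25, adjusted p = 0.0053 for Igf1). The call for Igf1 was lost without aged replicate 1 (log2 fold change -0.51, adjusted p = 0.0753) and without the length trend. The receptor gene Igf1r fell too (log2 fold change -0.47 ± 0.065, adjusted p = 1.8e-08), with a log2 fold change of 0.06 (adjusted p = 0.416) once the length trend was removed. Igfbp7, a secreted binding protein, had 906, 912 and 912 CPM in the young libraries and 1743, 1659.7 and 1568 CPM in the aged libraries (log2 fold change 0.86 ± 0.042 (SE), adjusted p = 3.53e-23). Igfbp4, another binding protein, rose 2.41-fold. In the AKT and mTOR list 7 were higher and 11 lower of 24, a majority that turned with the length trend removed. Eif4ebp1, a translational repressor that mTOR inactivates, rose (log2 fold change 1.64 ± 0.16, adjusted p = 2.4e-12), while Phlpp2, a phosphatase of AKT, fell (log2 fold change -2.52 ± 0.11, adjusted p = 1.3e-24).

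The RASSF family, named in the series title, holds scaffold proteins that bind the kinases MST1 and MST2. Of 13 RASSF and MST genes 8 rose and 2 fell. Rassf2 was low, with 29, 28 and 33 counts in the young and 51, 92 and 63 in the aged libraries (log2 fold change 1.38 ± 0.33 (SE), adjusted p = 0.000309). The groups did not overlap, yet the aged libraries spread widely. Rassf3 had 35.3, 38.2 and 33.7 CPM in the young libraries and 106, 110.3 and 105 CPM in the aged libraries (log2 fold change 1.59 ± 0.068 (SE), adjusted p = 3.62e-25), which is a larger change at a higher count. Rassf8 fell (log2 fold change -1.18 ± 0.13, adjusted p = 3.5e-11).

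Genes that respond within minutes of a stimulus fell in 10 of 20 cases and rose in 5. Fosb, a subunit of the AP-1 factor, had 47.7, 53.5 and 42.3 CPM in the young libraries and 5.37, 4.58 and 6.74 CPM in the aged libraries (log2 fold change -3.11 ± 0.14 (SE), adjusted p = 3.96e-24). Fos and Egr1 fell with it (log2 fold change -1.98 ± 0.07, adjusted p = 1.7e-28 for Fos and log2 fold change -1.81 ± 0.084, adjusted p = 7.4e-24 for Egr1). Maff, a small MAF factor, rose against this trend, with 2.65, 1.87 and 2.57 CPM in the young libraries and 18.6, 15.6 and 16.2 CPM in the aged libraries (log2 fold change 2.83 ± 0.22 (SE), adjusted p = 6.97e-16). The genes of the circadian clock included 10 higher and 4 lower of 18 (8 and 7 with library size alone), and without young replicate 1 only 2 were lower. Arntl, the activator BMAL1 of the clock, had 34.8, 38.5 and 34.7 CPM in the young libraries and 13.3, 14.8 and 15.6 CPM in the aged libraries (log2 fold change -1.30 ± 0.11 (SE), adjusted p = 4.56e-14). Dbp, an output gene that BMAL1 activates, had 74.6, 74.1 and 67.9 CPM in the young libraries and 187, 172 and 169.6 CPM in the aged libraries (log2 fold change 1.29 ± 0.059 (SE), adjusted p = 3.19e-24), and the repressor gene Bhlhe40 rose 2.98-fold. The sources used here do not give the hour at which tissue was taken, so clock phase and age cannot be told apart.

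Complement and antigen presentation genes rose in 15 of 25 cases and fell in 1, or 10 and 3 with library size alone. Their median of 0.62 was 0.35 without the length trend. C3, the central complement component, had 7.19, 5.61 and 5.62 CPM in the young libraries and 15.8, 15.5 and 15.9 CPM in the aged libraries (log2 fold change 1.35 ± 0.17 (SE), adjusted p = 9.91e-10). Serping1, the C1 inhibitor, rose 2.25-fold, and Clu, the chaperone clusterin, 1.95-fold. Nlrc5, the activator of MHC class I genes, was the member that fell (log2 fold change -1.45 ± 0.17, adjusted p = 1.2e-10). Beside these genes, 2 of 17 macrophage and microglia markers rose and 2 fell. Among inflammatory mediators, Tlr2, a receptor for microbial lipids, had 3.03, 4.43 and 2.81 CPM in the young libraries and 15.7, 14.97 and 15.8 CPM in the aged libraries (log2 fold change 2.18 ± 0.2 (SE), adjusted p = 4.26e-13). The acute-phase inhibitor gene Serpina3n rose 3.98-fold. Tnfaip3, the NF-kappaB inhibitor A20, had 116, 119 and 128 CPM in the young libraries and 15.7, 16.7 and 16.3 CPM in the aged libraries (log2 fold change -2.90 ± 0.084 (SE), adjusted p = 5.58e-32). Interferon-stimulated genes rose in 9 of 21 cases, Ifit2 among them (log2 fold change 1.35 ± 0.12, adjusted p = 8.6e-14), and their median of 0.69 was 0.25 without the length trend.

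Enzymes that write and erase histone lysine methylation fell in 26 of 43 cases and rose in 7. They are long genes, and the median of -0.46 became -0.17 with the length trend removed. Kmt2a, which methylates lysine 4 of histone H3, had 212, 201 and 208 CPM in the young libraries and 46.8, 50.1 and 61.9 CPM in the aged libraries (log2 fold change -1.97 ± 0.069 (SE), adjusted p = 1.11e-28). Its relative Kmt2d fell by the same factor (log2 fold change -1.97 ± 0.069, adjusted p = 9.8e-29). Setd3, which methylates actin rather than histones, rose (log2 fold change 1.02 ± 0.054, adjusted p = 1.5e-21). Splicing factors had 15 higher and 15 lower of 42, but 4 higher and 30 lower with library size alone.

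Of 13 sodium and calcium pump genes 3 rose and 8 fell. Atp1b3, a sodium pump beta subunit of wide expression, was among those that rose and had 435, 427 and 428 CPM in the young libraries and 903, 870.5 and 835 CPM in the aged libraries (log2 fold change 1.02 ± 0.044 (SE), adjusted p = 4.9e-25). Amino acid transporters fell in 17 of 28 cases. Slc38a3, a glutamine transporter, had 192, 211 and 195 CPM in the young libraries and 35.9, 34.6 and 38.8 CPM in the aged libraries (log2 fold change -2.45 ± 0.067 (SE), adjusted p = 6.51e-33), and Slc38a2 of the same family rose 1.803-fold. Ephrins and Eph receptors fell in 13 of 22 cases. Neurons of the retina also make many of these transporters and receptors, and the part of the fall in rod markers (median -4.21) was not tested. Epha2, a receptor whose mutations cause inherited cataract, rose instead, with 67.7, 72.1 and 65.8 CPM in the young libraries and 163, 165 and 161 CPM in the aged libraries (log2 fold change 1.25 ± 0.058 (SE), adjusted p = 8.29e-24). Sag, which encodes the rod arrestin, is printed as an example of the retinal promoters, 250 bases before the RefSeq start at chr1:87803430-87803679 on the plus strand, with the site TAATCC of the photoreceptor factor CRX in capitals, here on the reverse strand.
Sag: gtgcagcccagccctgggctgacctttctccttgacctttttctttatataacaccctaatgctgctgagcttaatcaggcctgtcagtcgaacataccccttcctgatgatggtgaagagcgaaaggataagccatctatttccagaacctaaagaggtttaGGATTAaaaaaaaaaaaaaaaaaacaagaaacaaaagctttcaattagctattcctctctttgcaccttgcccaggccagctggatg
Promoters of 7 of the 15 rod markers with a sequence held this site on either strand (46.7%), against 5.67% of all. The share was 7.34% among genes called at least 2-fold lower and 5.42% among those at least 2-fold higher. Sag had 1021, 1041 and 1026 CPM in the young libraries and 79.6, 61.9 and 72.5 CPM in the aged libraries.

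**Figure D5:**
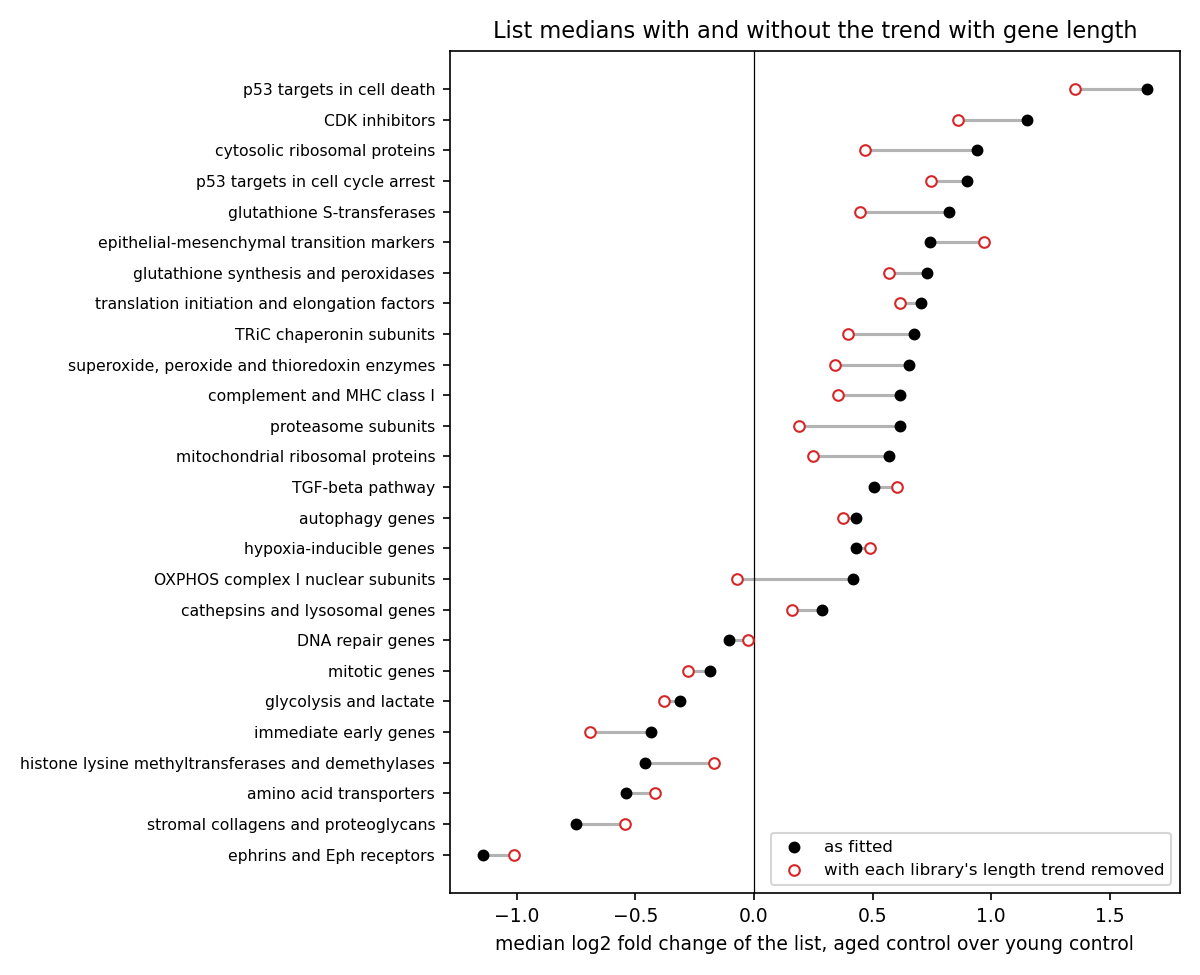
Median log2 fold change of each gene list (aged over young control) as fitted (filled) and with each library's trend with gene length removed (open). Among the lists plotted, complex I, cytosolic ribosomal and proteasome medians move most towards lower values, and the p53 target and glutathione lists stay above 0.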

How the data were processed

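Raw counts per gene and FPKM values (counts scaled by gene length and library total) were deposited by the authors in a table of 17527 genes and 9 libraries. Each gene's length, also used for the length trend, was taken as the median over libraries that the counts and FPKM imply. With it the authors' FPKM equalled count over length and total within 7e-05% for 138164 entries. As the length comes from the same values, this shows only that a gene's length was the same in all libraries. The build is GRCm38 or mm10, per the submitters' processing notes, and the sources used here do not give the aligner, counter, annotation or use of strand, so overlapping and antisense genes cannot be told apart. Genes with low counts were removed with filterByExpr, which left 13711. The main test was edgeR's quasi-likelihood test (4.0.16, R 4.3.3) with TMM scaling on all 9 libraries and 3 group means, aged control minus young control, with Benjamini-Hochberg adjustment and a threshold of 0.05. The script was tested on simulated data in which few genes changed, with equal odds in either direction. In these libraries most genes were called, so that test cannot bear on the choice of scaling. CPM values carry TMM factors of 0.881 to 0.926 in aged and 1.119 to 1.131 in young libraries, and 3 counts equal 0.183 to 0.232 CPM. Intervals are 95% and cover counting error only. The 10 highest genes took 32.8% to 34.5% of the counts in aged and 26.8% to 27.1% in young libraries. Alternatives were library size alone, scaling to lens fibre genes, removal of each library's length trend (lowess, span 0.3), no filter, the 6 libraries alone, DESeq2 1.42.0 (size factors or its own Wald test), limma 3.58.1 on log2(FPKM + 1) and log2(FPKM + 0.1), a replicate block and each library left out.

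Comparison, gene lists and rules were chosen with earlier results of these data known. Named genes were the 12 largest changes in each direction without overlap of the groups, of at least 20 CPM in the group with more, and with a symbol of a characterised gene, up to 3 called members of each list in each direction by smallest p, up to 3 cell type markers of highest level, the 5 genes with the highest mean CPM, and Rassf2. Bax, Bbc3, Cdh1, Cdkn2a, Col4a1, Crygn, Eda2r, Fgfr2, Gstp2, Hk2, Mki67, Sag, Tgfb1, Tnfrsf10b, Twist1, Vegfa and Wipi1 fall outside this rule and were chosen after their values were seen. Promoter sequences are from RefSeq (GRCm38.p6) and were matched by symbol, and gene positions are from GENCODE M21. Some results are not reported here.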

Additional observations from a re-analysis of the deposited data

How the results depend on the processing

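The choice of scaling had the largest effect. The count of genes called higher, 4847, was 2937 with library size alone, 3039 scaled to lens fibre genes, 2940 with log2(FPKM + 0.1) and 2947 with log2(FPKM + 1), while 6445, 6260, 6381 and 6424 were called lower. Crygs, called higher, was at -0.18 with the length trend removed, -0.01 with library size alone and -0.01 on both FPKM scales. Igf1r, called lower, was at 0.06 with the length trend removed. The cause was not tested. Of 158 genes named in the text, 153 kept their direction and their side of the threshold with library size alone, and all 158 did so with the 6 libraries alone and with both uses of DESeq2. Trp53 lost its call under the 4 scalings that lower the median. Pax6, Col4a1 and Vegfa, which were not called, were then called lower, and with the length trend removed Pax6 and Col4a1 were called higher and Igf1 and Itgb8 lost their calls. Leaving out 1 library at a time gave 4569 to 4772 genes higher and 4391 to 4595 lower. In a fit of the 6 libraries alone 4602 genes were higher and 4912 lower, so the majority turned. With the replicate number as a block, 4831 genes were higher and 4620 lower. The numbers did not pair the samples: deviations of same-numbered libraries from their group means correlated at 0.013, 0.00628 and -0.00263, and aged replicate 2 correlated best with young replicate 3. Genes near or below 3 counts per library, such as Cryga in aged tissue, are limited by depth.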
